A study of Rattus norvegicus with 12 samples.

Results

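Transcripts of NAD salvage, NAD phosphorylation and NADPH supply were followed in rat heart for 9 genes: Nampt, Nmrk1, Nmrk2, Naprt, Nmnat1, Nmnat3, Nadk, Nadk2 and Nnt. They were taken by gene symbol from the 17602 rows of the expression table, where each of the 9 symbols has a single entry, and 8 of them passed the filter on low values that left 10526 genes for testing. The study used 24 mM nicotinamide (NAM) as an NAD precursor and asked how it affects the heart in a model of heart failure with preserved ejection fraction, in which the ventricle fills poorly although it ejects normally. Cardiac muscle RNA was sequenced in 4 samples of each of 3 groups: obese ZSF1 rats that drank NAM between 8 and 20 weeks of age, untreated obese ZSF1 rats, and lean ZSF1 rats, which the design text calls non-failing controls.

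Obese ZSF1 rats inherit defective leptin receptor alleles on a hybrid background that also carries hypertension, and the lean rats share that background, so the lean group is not a normotensive control. The treatment label nevertheless calls the obese animals diet-induced. The labels give neither sex nor the age of the untreated animals, and nothing in them ties a sample to an animal of its own, so the p-values rest on sample-to-sample spread, part of which may be technical. Values are TPM, the share of each library's transcripts after correction for gene length, a unit that keeps no read depth. The counting error behind low values is therefore unknown.

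NAD is remade in the heart mainly by recycling. Nampt joins nicotinamide to a phosphoribosyl group to give nicotinamide mononucleotide, the Nmrk kinases make the same mononucleotide from nicotinamide riboside, and the Nmnat enzymes turn that into NAD. Naprt opens a separate route from nicotinic acid, which Nadsyn1 ends by amidation, and Qprt opens the last stretch of the de novo route from tryptophan. NAD kinases then phosphorylate part of the NAD to NADP, Nadk in the cytosol and Nadk2 in mitochondria, and Nnt, a proton-driven pump protein of the inner mitochondrial membrane, uses NADH to reduce that NADP to NADPH.

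TPM are shares of a single total, and this total was unevenly filled. Mitochondrially encoded transcripts took 69.9% to 73.8% of TPM in NAM-treated obese, 74.6% to 75.5% in obese and 66.2% to 70.4% in lean samples, and the log2 change of the median tested gene was 0.25 for NAM-treated obese against obese hearts, -0.20 for obese against lean and 0.054 for NAM-treated obese against lean. Each result is therefore given as deposited and after median-of-ratios rescaling, which sets the typical gene equal across samples, with scaling factors of 0.994 to 1.17 in NAM-treated obese, 0.841 to 0.928 in obese and 1.03 to 1.09 in lean samples. All 8 cardiomyocyte markers were present, with summed TPM of 16498 to 19115.8 in NAM-treated obese, 13379.5 to 15185.6 in obese and 19001.5 to 22012.3 in lean samples. The 5 fast skeletal muscle markers in the table reached at most 3.30, 2.77 and 4.91 TPM in sum in NAM-treated obese, obese and lean samples, with none at 0 throughout.

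The steps that open the routes to NAD differed widely in transcript level, and their order was the same in all 12 samples. Nampt averaged 42.6 ± 4.43 TPM in NAM-treated obese, 30.6 ± 4.97 TPM in obese and 45.7 ± 5.29 TPM in lean hearts (mean ± SD, n = 4 each). The sum of Nmrk1 and Nmrk2 averaged 4.33 ± 0.911, 3.89 ± 0.638 and 6.25 ± 1.23 TPM in the same groups, and Naprt 2.08 ± 0.665, 1.84 ± 0.523 and 2.68 ± 0.556 TPM. Qprt lay between 0 and 0.412 TPM and was listed at 0 in 5 of 12 samples, and Nadsyn1 lay between 0.518 and 1.003 TPM. Over the 12 samples the mean of Nampt was 8.22 times that of the Nmrk pair, and the mean of the Nmrk pair was 2.19 times that of Naprt. The ranges of Nampt and the Nmrk pair did not overlap, whereas those of the Nmrk pair (3.12 to 7.80 TPM) and Naprt (1.14 to 3.27 TPM) met.

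**Figure D1:**
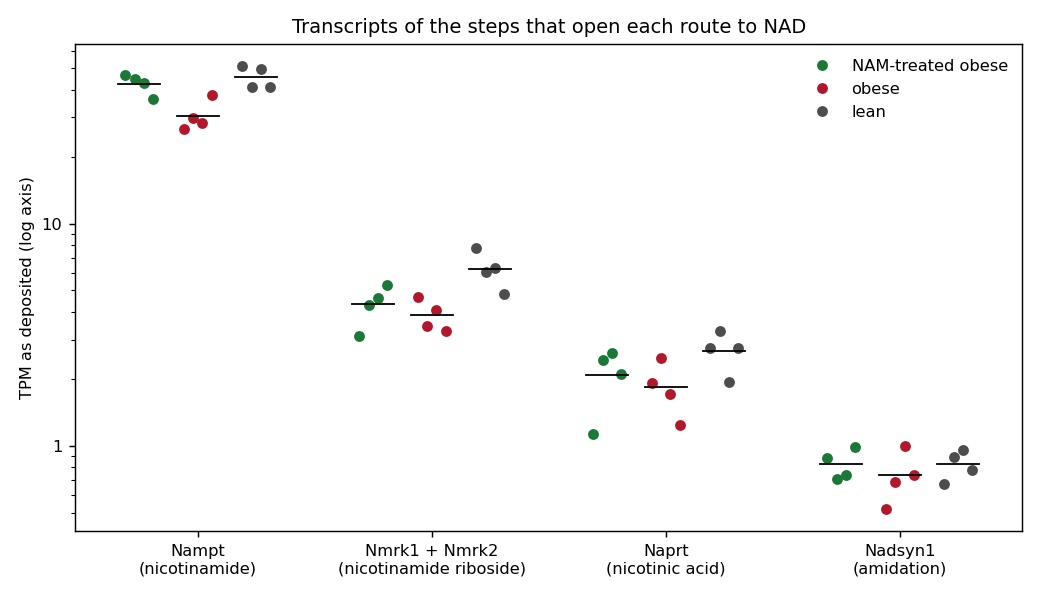
TPM as deposited (log axis) of transcripts of the routes to NAD, with 1 point per sample and a line at the mean of each group of 4. Nampt, the Nmrk pair and Naprt open a route, Nadsyn1 ends the nicotinic acid route, and Qprt is not plotted. Nampt lies between 26.5 and 51.1 TPM in every sample, above the sum of Nmrk1 and Nmrk2 at 3.12 to 7.80 TPM, with Naprt at 1.14 to 3.27 TPM and Nadsyn1 at 0.518 to 1.003 TPM.

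Nampt supplied most of the transcripts of these entry steps in every group. Of the summed TPM of Nampt, Nmrk1, Nmrk2, Naprt and Qprt, it made up 86.8 ± 3.63% in NAM-treated obese, 83.6 ± 3.84% in obese and 83.2 ± 1.55% in lean hearts. The Nmrk pair made up 8.94 ± 2.46%, 10.9 ± 2.76% and 11.3 ± 1.25% in these groups, and Naprt 4.25 ± 1.36%, 5.16 ± 1.72% and 4.98 ± 1.37%. The spread between samples was larger than the differences between neighbouring group means. Since these are transcript shares within a sample, they do not depend on the scaling, and they do not measure enzyme activity.

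Among the 9 members, Nnt was the most abundant transcript and Nmrk1 the least. Mean TPM over the 12 samples was 194 for Nnt, 39.6 for Nampt and 17.2 for Nadk2, levels above those of 97.6%, 91.3% and 81.5% of the tested genes. These 3 genes and Nmnat1 (5.66 TPM) kept their mutual order in 12 of 12 samples without overlap between neighbours. Below Nadk2 the neighbours crossed. Nmnat1 exceeded Nadk (4.82 TPM) in 9 samples, Nadk exceeded Nmrk2 (4.33 TPM) in 8, Nmrk2 exceeded Nmnat3 (2.57 TPM) in 11 and Nmnat3 exceeded Naprt (2.20 TPM) in 9 of 12. Nmrk1 came last at 0.491 TPM and in no sample reached Naprt.

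The salvage enzymes differed in how they varied between samples. How large a share of all genes shows no overlap between groups is not given here. Separations named below are therefore not read as particular to these members. Nampt stood at 46.5, 44.9, 42.7 and 36.4 TPM in NAM-treated obese, at 26.5, 29.7, 28.4 and 37.8 TPM in obese and at 51.1, 41.1, 49.4 and 41.1 TPM in lean samples. All 4 obese values lay below the lean values as deposited, while the highest obese value passed the lowest NAM-treated one. After rescaling, the obese (31.5 to 43.2 TPM) and lean values (39.4 to 47.4 TPM) of Nampt overlapped. The muscle-enriched riboside kinase Nmrk2 stood at 2.80, 4.01, 3.73 and 4.90 TPM in NAM-treated obese, at 3.95, 3.15, 3.53 and 2.57 TPM in obese and at 7.28, 5.72, 5.90 and 4.44 TPM in lean samples. Its obese values lay below the lean values as deposited, and its NAM-treated values overlapped those of the other groups. After rescaling, its obese values (2.93 to 4.70 TPM) overlapped the lean ones (4.25 to 6.65 TPM). Its widely expressed paralog Nmrk1 stood at 0.320, 0.289, 0.883 and 0.393 TPM in NAM-treated obese, at 0.738, 0.305, 0.565 and 0.732 TPM in obese and at 0.523, 0.343, 0.442 and 0.365 TPM in lean samples. It remained under 1 TPM throughout and was left out of the tests for that reason. Naprt, the nicotinic acid enzyme, stood at 1.14, 2.44, 2.63 and 2.09 TPM in NAM-treated obese, at 1.93, 2.496, 1.71 and 1.24 TPM in obese and at 2.77, 3.27, 1.93 and 2.76 TPM in lean samples, and its 3 groups overlapped.

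The Nmnat enzymes complete NAD from the mononucleotide, Nmnat1 in the nucleus and Nmnat3 in mitochondria. Nmnat1 stood at 5.87, 6.61, 7.41 and 5.81 TPM in NAM-treated obese, at 3.69, 4.92, 5.19 and 4.30 TPM in obese and at 5.94, 6.40, 6.27 and 5.55 TPM in lean samples. The obese values lay below all 8 others as deposited. After rescaling, the obese values of Nmnat1 (4.39 to 5.93 TPM) overlapped both the lean (5.32 to 6.21 TPM) and the NAM-treated ones (5.01 to 6.65 TPM). Nmnat3 stood at 3.14, 2.60, 3.46 and 2.43 TPM in NAM-treated obese, at 2.35, 2.19, 2.32 and 2.13 TPM in obese and at 2.31, 3.34, 2.58 and 2.002 TPM in lean samples. All 4 NAM-treated values lay above the obese ones as deposited and overlapped them after rescaling. The obese samples were the tightest group, with a coefficient of variation as deposited of 4.68% against 16.4% in NAM-treated obese and 22.3% in lean samples.

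The NADP and NADPH enzymes were led by the mitochondrial members. Nadk2 stood at 22.9, 19.2, 23.4 and 24.2 TPM in NAM-treated obese, at 12.9, 17.3, 13.7 and 15.4 TPM in obese and at 14.7, 13.99, 14.6 and 14.3 TPM in lean samples. Every NAM-treated value lay above every other value. Nadk stood at 5.59, 4.33, 6.26 and 6.31 TPM in NAM-treated obese, at 4.03, 5.24, 4.62 and 4.21 TPM in obese and at 3.43, 5.47, 4.1997 and 4.15 TPM in lean samples, with overlap between all groups. Nnt stood at 258.7, 199, 221 and 236 TPM in NAM-treated obese, at 154, 183, 128 and 136 TPM in obese and at 217, 199, 197 and 202 TPM in lean samples. The obese values lay below all others as deposited, and NAM-treated replicate 2 lay within the lean range. After rescaling, the obese values of Nnt (146 to 198 TPM) overlapped both the lean (189 to 198 TPM) and the NAM-treated ones (197 to 221 TPM).

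**Figure D2:**
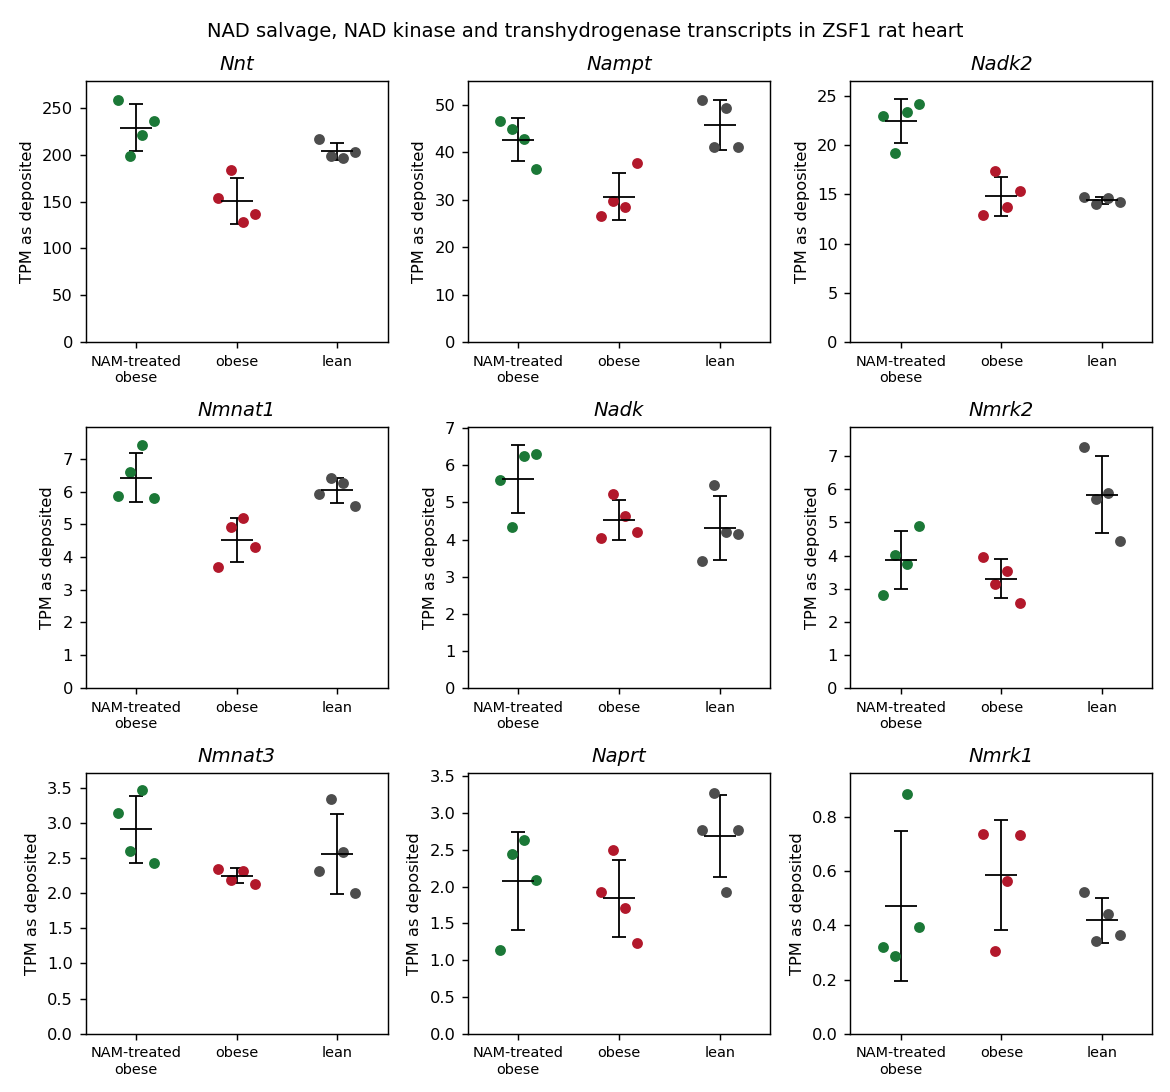
TPM as deposited of the 9 genes in order of mean level, with 1 point per sample, the mean as a horizontal line and the SD as whiskers (n = 4 per group). Nadk2 lies at 19.2 to 24.2 TPM in NAM-treated obese samples, above its highest value elsewhere of 17.3 TPM. Nmrk2 has its highest mean in lean samples, whose values (4.44 to 7.28 TPM) overlap the NAM-treated ones.

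Upstream sequence from RefSeq (build GRCr8, a newer build than the Rnor_6.0 of the expression table) was in the promoter table for 6 of the 9 genes. Nadk2 and Nmrk2 are shown. The first was called higher in NAM-treated obese than in lean hearts on both scales, and the second is the muscle-enriched riboside kinase. The 250 bases before the annotated start lie at chr2:59844604-59844853 for Nadk2 and at chr7:9165317-9165566 for Nmrk2, both on the plus strand. Capitals mark CANNTG, the general E-box, which reads the same on both strands.
Nadk2: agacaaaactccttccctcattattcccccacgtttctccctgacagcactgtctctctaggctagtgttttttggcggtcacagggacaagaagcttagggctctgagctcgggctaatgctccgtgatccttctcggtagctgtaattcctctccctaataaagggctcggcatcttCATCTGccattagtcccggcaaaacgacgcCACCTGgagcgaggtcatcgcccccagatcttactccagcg
Nmrk2: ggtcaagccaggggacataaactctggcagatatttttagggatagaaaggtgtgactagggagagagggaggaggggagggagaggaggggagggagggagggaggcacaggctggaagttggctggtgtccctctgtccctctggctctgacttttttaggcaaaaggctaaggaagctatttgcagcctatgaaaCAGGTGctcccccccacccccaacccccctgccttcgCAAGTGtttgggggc
Each window holds 2 matches, and 65.5% of the 33469 promoter windows of that length hold at least 1. The narrower E-box CACGTG, a form of CANNTG bound by clock factors in mouse, was found once upstream of Nnt and in none of the other 5 windows, against 5.59% of all windows. The GC box GGGCGG (also read as CCGCCC on the other strand) was found once upstream of Nmnat1 and 3 times upstream of Nmnat3, against 30.5% of all windows with at least 1, and TATAAA, searched on the other strand as well, in none of the 6, against 12.9%. These counts describe letters in a window.

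How the salvage genes stand in the failing heart was read from obese against lean samples. As deposited, Nampt and the muscle-enriched riboside kinase Nmrk2 fell in obese hearts, together with the nuclear enzyme Nmnat1 and the transhydrogenase. Nmrk2 fell to 3.30 ± 0.588 TPM in obese hearts, against 5.83 ± 1.16 TPM in lean hearts (log2 change -0.66, SE 0.16, limma adjusted p = 0.0147). Nampt fell to 0.67 times its lean level (log2 change -0.57, SE 0.12, limma adjusted p = 0.00886). Nnt averaged 150.5 ± 24.6 TPM in obese and 204 ± 8.91 TPM in lean hearts (log2 change -0.45, SE 0.11, limma adjusted p = 0.0171), and Nmnat1 4.53 ± 0.671 and 6.04 ± 0.378 TPM (log2 change -0.36, SE 0.11, limma adjusted p = 0.0406). The NAD kinases did not pass, with log2 changes of 0.030 for Nadk2 (95% interval -0.19 to 0.25) and 0.065 for Nadk (-0.23 to 0.36), nor did Nmnat3 at -0.12 (-0.39 to 0.15) or Naprt at -0.38 (-0.78 to 0.020).

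In all, 4 of the 8 tested members fell and 0 rose between obese and lean hearts as deposited. Across all tested genes 16.5% were called lower and 0.352% higher in this comparison. The median log2 change was -0.37 over the members and -0.20 over all genes. After rescaling, 0 of 8 members passed, where 0.751% of all genes were called lower and 0.589% higher by adjusted p. At an unadjusted limma p under 0.05 the rescaled values had Nampt, Nmrk2 and Nnt lower and Nadk and Nadk2 higher. The share of all genes at that unadjusted threshold is not given here, so nothing is read from this listing. The rescaled change of Nadk2 was 0.27 (limma adjusted p = 0.0879). The rescaled log2 changes were -0.46 for Nmrk2 (limma adjusted p = 0.19), -0.32 for Nampt (adjusted p = 0.208), -0.19 for Nnt (adjusted p = 0.298) and -0.14 for Nmnat1 (adjusted p = 0.576). The 4 falls therefore passed as deposited and not after rescaling. The summed cardiomyocyte markers were likewise lower in every obese than in every lean sample as deposited. Marker sums were not rescaled and share the uneven column scaling. In bulk tissue fewer cells of a type and less RNA per cell cannot be told apart. The 5 erythroid markers moved the other way, with summed TPM of 542 to 2560 in NAM-treated obese, 1813 to 4401 in obese and 760 to 1719 in lean samples, again without overlap between obese and lean. The part of either marker group in the falls was not tested. Neutrophils are a cell type rich in Nampt in human. Of 5 of their markers 4 were in the table, none of them at 0 throughout, and these summed to 3.31 to 6.64 TPM in NAM-treated obese, 0.751 to 19.9 TPM in obese and 4.90 to 109 TPM in lean samples. The 109 TPM belong to lean replicate 1, which also had the highest Nampt. Without that replicate the change of Nampt as deposited was -0.51 (limma adjusted p = 0.0304), and the part of neutrophils in it was not tested.

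With 1 sample left out, the call of Nmnat1 as deposited ended in 6 of 12 fits, at most with adjusted p = 0.106 without obese replicate 1. It also ended with no filter on low values (limma adjusted p = 0.0623) and with only the obese and lean samples in the fit (0.0564). The call of Nnt ended without obese replicate 4 (log2 change -0.40, limma adjusted p = 0.05), which left 2 members called in that fit. The calls of Nampt and Nmrk2 as deposited stood in 12 of 12, and rescaled Nampt was called in 0 of 12.

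What accompanied the supplement was read from NAM-treated obese against obese hearts. As deposited, the transhydrogenase, the mitochondrial NAD kinase, Nampt and Nmnat1 rose with NAM. Nnt averaged 229 ± 25.1 TPM in NAM-treated obese and 150.5 ± 24.6 TPM in obese hearts, 1.52 times as much (log2 change 0.61, SE 0.11, limma adjusted p = 0.00411). Nadk2 averaged 22.4 ± 2.22 TPM in NAM-treated obese and 14.8 ± 1.97 TPM in obese hearts, 1.51 times as much (log2 change 0.57, SE 0.10, limma adjusted p = 0.00364). Nampt, through which the supplement itself enters NAD, was 1.39 times higher (log2 change 0.47, SE 0.12, limma adjusted p = 0.0137), and Nmnat1 1.42 times (log2 change 0.43, SE 0.11, limma adjusted p = 0.0131). Nmrk2 did not pass, at 3.86 ± 0.868 TPM in NAM-treated obese and 3.30 ± 0.588 TPM in obese hearts (log2 change 0.17, 95% interval -0.17 to 0.51), nor did Nmnat3 at 0.26 (-0.010 to 0.53), Nadk at 0.26 (-0.038 to 0.55) or Naprt at 0.10 (-0.30 to 0.50).

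Thus 4 of the 8 tested members rose and 0 fell with NAM as deposited, where 28.8% of all tested genes were called higher and 0.466% lower. The median log2 change was 0.34 over the members and 0.25 over all genes. After rescaling, 0 of 8 members passed, where 0.2% of all genes were called higher and 0.513% lower. Nnt was at 0.29 (95% interval 0.10 to 0.47, limma adjusted p = 0.143) and Nadk2 at 0.26 (0.11 to 0.42, adjusted p = 0.119). Both had an unadjusted limma p under 0.05. Nothing is read from that, since the share of all genes at the unadjusted threshold is not given here. Nampt and Nmnat1 were each at 0.16, with limma adjusted p = 0.57 and 0.525. On the rescaled scale Nmrk2, Naprt and Nadk were at -0.082, -0.10 and -0.015, with the opposite sign to the deposited values. The summed cardiomyocyte markers were higher in every NAM-treated than in every untreated obese sample as deposited. These sums were not rescaled and share the uneven column scaling, and their part in the rises was not tested. With mitochondrially encoded genes left out of the TPM, Nadk2 and Nnt did not pass either, at 0.40 and 0.41 (limma adjusted p = 0.0519 and 0.0534). Without obese replicate 2 the rescaled Nnt passed (log2 change 0.36, limma adjusted p = 0.0467).

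Where the treated hearts stood relative to the controls was read from NAM-treated obese against lean hearts. These groups differ in both obesity and treatment, which this comparison cannot tell apart. Nadk2 was the member that differed, and it did so on both scales. It averaged 22.4 ± 2.22 TPM in NAM-treated obese and 14.4 ± 0.338 TPM in lean hearts, 1.56 times as much (log2 change 0.60, SE 0.10, limma adjusted p = 0.0108). Rescaled, it stood at 19.6, 19.3, 20.8 and 21.5 TPM in NAM-treated obese, at 15.3, 18.7, 15.6 and 17.6 TPM in obese and at 13.5, 13.6, 14.004 and 13.7 TPM in lean samples. The 3 groups did not overlap on that scale, with the untreated obese samples between the treated and the lean ones. The rescaled log2 change against lean was 0.54 (SE 0.07, limma adjusted p = 0.00354). The call stood with each of the 12 samples left out, with adjusted p of at most 0.0459 as deposited and 0.0163 rescaled. The 5 atrial muscle markers, none at 0, summed to 175.6 to 1110 TPM in NAM-treated obese, 121 to 588 TPM in obese and 99.7 to 169 TPM in lean samples. Every treated sample lay above every lean one as deposited, and these sums were not rescaled. The closest were NAM-treated replicate 3 and lean replicate 4 (175.6 and 169 TPM, with scaling factors of 1.12 and 1.04). Without NAM-treated replicate 1, which had the highest sum, the call of Nadk2 stood as well. The part of atrial tissue in the result was not tested.

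Against lean hearts, 1 of the 8 tested members was higher and 0 lower as deposited, where 0.865% of all genes were called higher and 0.969% lower. The count was the same after rescaling, where 0.77% of all genes were called higher and 1.59% lower. Nmrk2, which did not pass, averaged 3.86 ± 0.868 TPM in NAM-treated obese and 5.83 ± 1.16 TPM in lean hearts (log2 change -0.49, 95% interval -0.84 to -0.15, limma adjusted p = 0.143), with a rescaled change of -0.54 (adjusted p = 0.117). Nampt was at -0.096 (95% interval -0.36 to 0.17), Nnt at 0.16 (-0.078 to 0.40), Nmnat1 at 0.073 (-0.16 to 0.31) and Nadk at 0.32 (0.027 to 0.61), none of them past the adjusted threshold. The 3 comparisons share samples, so their values are not independent of each other.

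**Figure D3:**
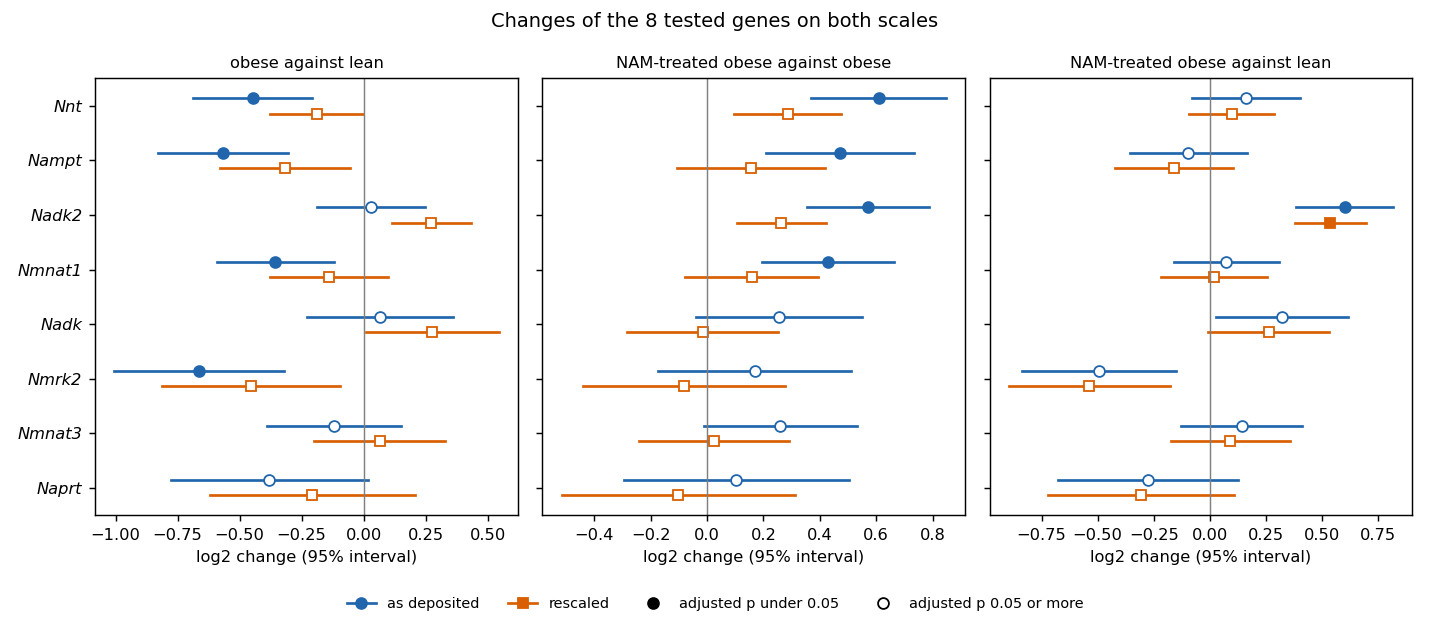
Log2 change with its 95% interval for the 8 tested genes in the 3 comparisons, as deposited (circles) and rescaled (squares), with filled symbols where limma's adjusted p is under 0.05. As deposited, 4 genes are lower in obese against lean and 4 higher in NAM-treated against obese hearts, and Nadk2 in NAM-treated obese against lean hearts is the filled point on both scales, at 0.60 and 0.54.

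Ratios between members within a sample cancel the scaling. The ratio of mitochondrial to cytosolic NAD kinase, Nadk2 to Nadk, was 4.02 ± 0.309 in NAM-treated obese and 3.28 ± 0.288 in obese hearts (exact 2-sided permutation p = 0.0286, the smallest that 4 against 4 samples allow, n = 4 each), without overlap between the groups. In lean hearts it ranged from 2.55 to 4.30 and overlapped both obese groups. The ratio of Nmrk2 to Nmrk1 was 6.36 ± 2.89 in obese and 14.03 ± 1.89 in lean hearts (exact permutation p = 0.0286), again without overlap, and 9.84 ± 4.33 in NAM-treated obese hearts. Nmrk1 lay under 1 TPM, so the counting error of that ratio is unknown and may be large. Adjusted over the 12 tests of 4 ratios in 3 comparisons, both became 0.172 and no ratio passed 0.05. The ratio of Nmrk2 to Nampt was 0.0929 ± 0.0309 in NAM-treated obese, 0.112 ± 0.0342 in obese and 0.127 ± 0.0164 in lean hearts, and that of Nmnat3 to Nmnat1 0.453 ± 0.0618, 0.506 ± 0.0904 and 0.421 ± 0.0702, with overlap between all groups.

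**Figure D4:**
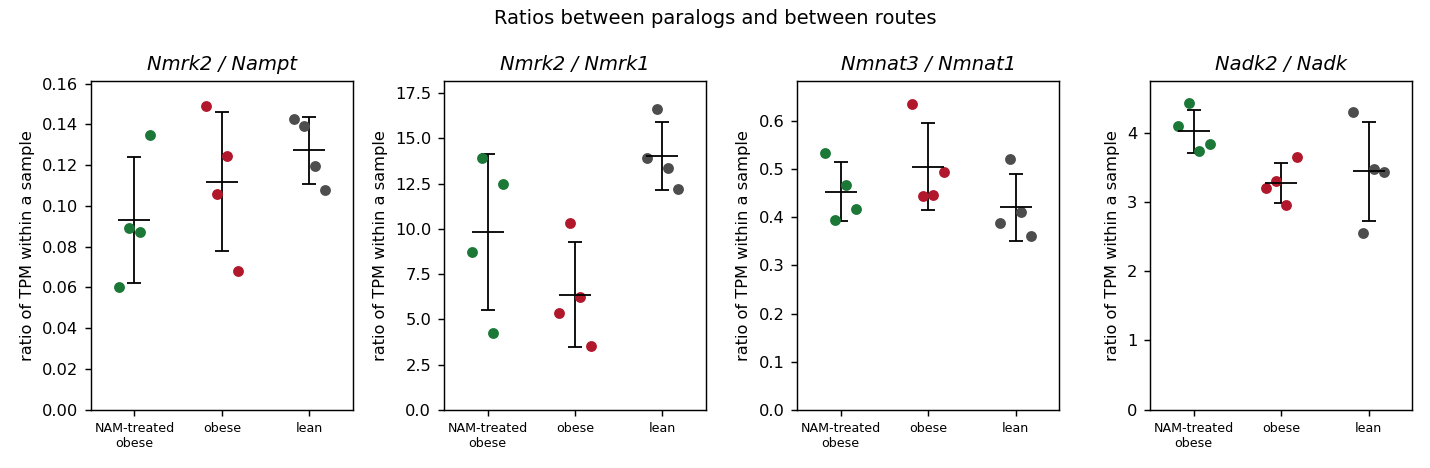
Ratios of TPM within a sample for 4 pairs of members, with 1 point per sample, the mean as a horizontal line and the SD as whiskers (n = 4 per group). Nadk2 to Nadk averages 4.02 in NAM-treated obese against 3.28 in obese samples without overlap, and Nmrk2 to Nmrk1 6.36 in obese against 14.03 in lean samples without overlap.

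Genes around the 9 members were taken from 3 lists, chosen like the members with earlier results of these data known. Of 21 genes of de novo synthesis, nicotinic acid use and precursor transport, 19 had a number in every sample and 5 were abundant enough to be tested. Between NAM-treated obese and obese hearts 1 of the 5 rose as deposited, which is no larger a share than the 28.8% of all tested genes called higher, and 1, the same gene, was higher against lean hearts. This was Nt5e, the cell-surface enzyme that dephosphorylates nicotinamide mononucleotide to the riboside, at 8.41 ± 0.745 TPM in NAM-treated obese, 6.03 ± 0.371 TPM in obese and 6.19 ± 0.175 TPM in lean hearts (log2 change 0.42 against obese and 0.39 against lean, limma adjusted p = 0.00548 and 0.0404). All 4 NAM-treated values, 7.49 to 9.32 TPM, lay above the others, which reached 6.44 TPM, but neither call stood after rescaling (limma adjusted p = 0.482 and 0.0669). Pnp, which splits nicotinamide riboside and other nucleosides, was at 17.5 ± 1.03, 18.4 ± 3.53 and 15.1 ± 2.49 TPM in NAM-treated obese, obese and lean hearts and was not called in any comparison.

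Several named genes of that list were near the limit of the table. Nmnat2, the family member typical of neurons, was listed at 0 in 2 of 12 samples and reached 0.350, 0.516 and 1.27 TPM at most in NAM-treated obese, obese and lean samples. Slc12a8, proposed as a carrier of nicotinamide mononucleotide in mouse, was listed at 0 in 4 samples and reached 0.227 TPM. Slc25a51, the mitochondrial NAD carrier, was listed at 0, 0.187, 0 and 0.496 TPM in NAM-treated obese, at 0, 0, 0.934 and 0.397 TPM in obese and at 0 in all 4 lean samples. No fold is given for these genes.

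Of 17 genes of NADPH supply and NADP dephosphorylation, 16 had a number in every sample and 10 were tested. As deposited, 6 fell between obese and lean hearts and 7 rose between NAM-treated obese and obese hearts, where 16.5% of all tested genes were called lower and 28.8% higher, with list medians of -0.41 and 0.36 against -0.20 and 0.25 over all genes. After rescaling 0 passed by limma in either comparison. At an unadjusted limma p under 0.05 there were 4 lower and 1 higher between obese and lean hearts and 1 in each direction with NAM. The share of all genes at the unadjusted threshold is not given here, so nothing is read from such counts. The rescaled list medians were -0.16 and 0.068. Idh2, the mitochondrial isocitrate dehydrogenase that makes NADPH beside Nnt, averaged 518 ± 44.3 TPM in NAM-treated obese, 375 ± 35.7 TPM in obese and 555 ± 31.3 TPM in lean hearts (log2 change 0.47 for NAM-treated obese against obese and -0.57 for obese against lean, limma adjusted p = 0.00411 and 0.00229). Me3, the mitochondrial malic enzyme, averaged 23.8 ± 1.80, 19.2 ± 1.58 and 26.5 ± 1.87 TPM and Glud1, glutamate dehydrogenase, 51.2 ± 5.65, 36.5 ± 3.41 and 47.8 ± 3.54 TPM in the same groups, both called in the same 2 comparisons as deposited and in neither after rescaling. Between NAM-treated obese and lean hearts 0 of the 10 genes were called by limma on either scale, with 0 at an unadjusted p under 0.05 as deposited and 1 lower after rescaling. The difference between these genes and Nadk2 in that comparison was not tested.

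All 13 genes of the NADH shuttles and of NADH repair were tested. As deposited, 8 fell between obese and lean hearts and 9 rose between NAM-treated obese and obese hearts, beside the same 16.5% and 28.8% of all tested genes. The list medians were -0.40 and 0.39, against -0.20 and 0.25 over all genes. In both comparisons 0 passed by limma after rescaling. At an unadjusted limma p under 0.05 there were 6 lower between obese and lean hearts and 3 higher with NAM. The share of all genes at that unadjusted threshold is not given here, so nothing is read from those counts. Got1, the cytosolic transaminase of the malate-aspartate shuttle, averaged 227 ± 12.1 TPM in NAM-treated obese and 147 ± 18.1 TPM in obese hearts (log2 change 0.62, limma adjusted p = 0.00305), and its carrier Slc25a12 33.9 ± 3.58 and 24.6 ± 2.84 TPM (log2 change 0.44, limma adjusted p = 0.00948). Gpd2, the mitochondrial enzyme of the glycerol phosphate shuttle, averaged 2.38 ± 0.262 TPM in NAM-treated obese, 1.91 ± 0.460 TPM in obese and 3.86 ± 0.387 TPM in lean hearts. It fell between obese and lean hearts as deposited (log2 change -0.75, limma adjusted p = 0.00357, rescaled -0.57 with adjusted p = 0.0582). Between NAM-treated obese and lean hearts it was the 1 gene of the list called after rescaling (log2 change -0.56, limma adjusted p = 0.048), and it was not called as deposited (-0.52, adjusted p = 0.057).

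**Figure D5:**
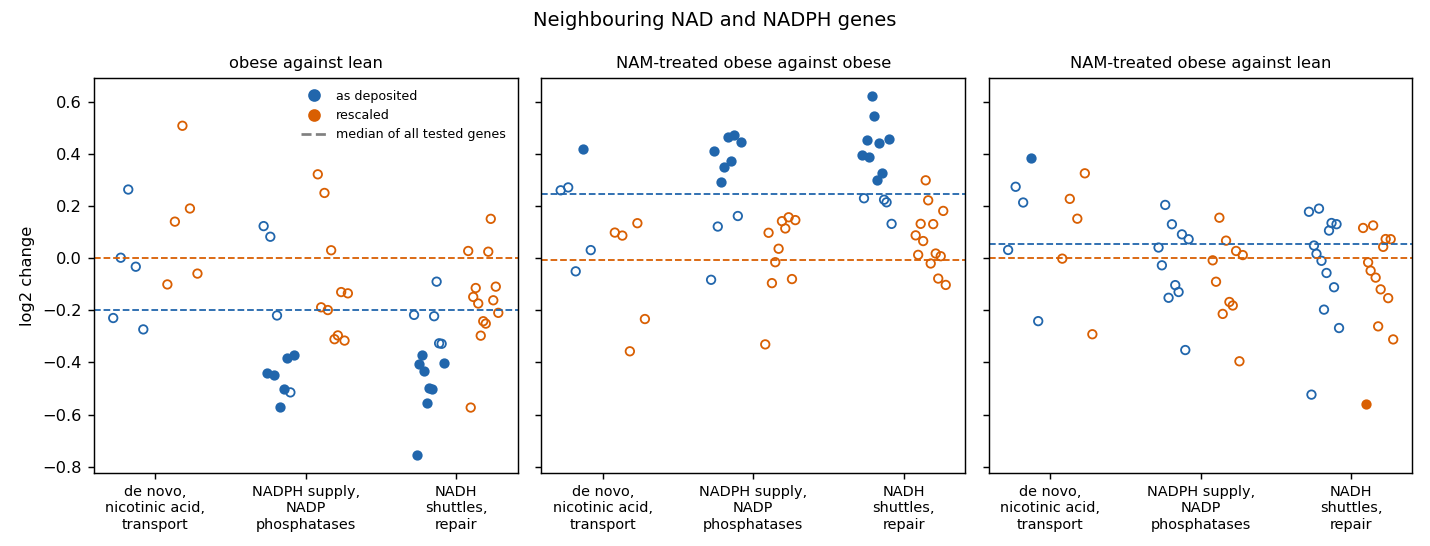
Log2 changes of the tested genes of 3 lists around the members (5, 10 and 13 genes) in the 3 comparisons, as deposited (blue) and rescaled (orange), filled where limma's adjusted p is under 0.05, with dashed lines at the median of all tested genes. The filled points of the first 2 comparisons are all on the deposited scale, and Gpd2 at -0.56 is the 1 rescaled gene past the threshold.

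The genes whose rescaled profiles over the 12 samples were most like those of 3 members were named by the root mean square difference between z-scores, which was about 1.42 for the median gene. Nearest to Nnt were Myom1, a protein of the sarcomeric M-band (0.327), Tmed4, of the secretory pathway (0.383), and Vcl, which encodes vinculin (0.395). Nearest to Nampt were Llph (0.515), Phkg1, the muscle phosphorylase kinase subunit (0.529), and Gps2 (0.547). Nearest to Nmrk2 were the entry AABR07051450.1 (0.386), Hras (0.444) and Vegfb, a vascular growth factor (0.466). Myom1, for instance, averaged 77.6 TPM in NAM-treated obese, 50.2 TPM in obese and 67.5 TPM in lean hearts as deposited. These means are not on the rescaled scale of the match. Points of such a profile share the library and its scaling.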

How the data were processed

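The authors deposited TPM per Ensembl gene for 12 samples. The submitters' processing notes name the build Rnor_6.0 and limma, with no aligner or transcript counter given in the sources used here. In 498 rows the NAM-treated columns hold a text mark and no number, none of them a member and 1 of them a list gene. These rows were left out, which leaves 17104 genes. A gene was kept where 4 or more samples reached 1 TPM (10526 genes). The log2(TPM + 1) values were fitted with limma 3.58.1 in R 4.3.3 (3 group means, all 12 samples, eBayes with trend and robust, statmod 1.5.0, Benjamini-Hochberg over all kept genes within a comparison, 2-sided, threshold 0.05). Fold changes of low genes are understated on this scale. Ratios were compared with exact permutation tests. The procedure was tested on simulated data without the uneven column scaling seen here, so that test does not bear on the scaling. The members and lists were chosen with earlier results of these data known. Named are all 9 members, 14 genes of the lists fixed by symbol (1 is not reported here) and any list gene called on both scales, of which there were 0. Alternatives covered scaling, pseudocount, filter, variance model, sample weights, pairing and each sample left out. Protein identities between paralogs were planned and not computed, since no protein sequences were used here. TPM sum to nearly the same total in each sample, so depth is unknown, and precision rests on the spread of 4 samples.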

Additional observations from a re-analysis of the deposited data

How the results depend on the processing

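As deposited, 4, 4 and 1 members passed the threshold in obese against lean, NAM-treated obese against obese and NAM-treated obese against lean hearts. In the first 2 comparisons the count became 0 under median-of-ratios rescaling, quantile normalization and TPM recomputed without mitochondrially encoded genes, while in the third it remained at 1. Leaving out each sample in turn gave 2 to 4, 4 to 4 and 1 to 1 members as deposited, and 0 to 0, 0 to 1 and 1 to 1 members rescaled. Rescaling took the called list genes to 0 in each list called as deposited and to 1 for NADH shuttles and repair in NAM-treated obese against lean hearts. Signs turned in changes that passed no threshold. For obese against lean hearts, Nmnat3 was 0.064 rescaled, 0.046 with quantile normalization and 0.13 without mitochondrial genes, and Nadk2 was -0.017 without Mt-atp8. For NAM-treated obese against obese hearts, rescaling and quantile normalization gave -0.082 and -0.063 for Nmrk2 and -0.10 and -0.063 for Naprt, Naprt was -0.040 without mitochondrial genes, and Nadk was -0.015 rescaled. For NAM-treated obese against lean hearts, Nampt was 0.0077 without mitochondrial genes and Nmnat1 -0.029 without Mt-atp8. With 1 sample left out, the range was -0.018 to 0.16 for Nadk and -0.044 to 0.090 for Nadk2 in obese against lean hearts, -0.0057 to 0.27 for Naprt in NAM-treated obese against obese hearts, and -0.19 to 0.065 for the log2 ratio of Nadk2 to Nadk in obese against lean hearts. Rescaled, it was -0.010 to 0.17 for Nmnat3 in obese against lean hearts. It was -0.057 to 0.045 for Nadk, -0.22 to 0.074 for Naprt, -0.031 to 0.092 for Nmnat3 and -0.17 to 0.050 for Nmrk2 in NAM-treated obese against obese hearts, and -0.037 to 0.078 for Nmnat1 in NAM-treated obese against lean hearts. The cause of these shifts was not tested.

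Nadk2 in NAM-treated obese against lean hearts passed under every alternative run, with log2 changes from 0.49 without Mt-atp8 to 0.73 without mitochondrial genes. Same-numbered samples did not deviate together (correlations of deviations from -0.049 to 0.072 over 12 pairs). These values gave no sign of pairing by number and could miss a weak one. With the replicate block 4, 4 and 1 members passed as deposited and 0, 0 and 1 rescaled. TPM keep no depth, which limits Nmrk1, Naprt, Qprt and the other genes near or under 1 TPM in particular.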
